A study of Arabidopsis thaliana with 8 samples.

Results

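A set of 26 probe sets on the Affymetrix ATH1 array had a higher signal in the fhy3 mutant than in wild type at every time sampled in constant red light. They were chosen by their deposited linear signals. The lowest fhy3 signal over the 4 times had to be at least 100 and at least 1.5 times the highest wild type signal over the same times. Of the 22746 probe sets that are not array controls, 0.114% met this rule, and 34 met its mirror image, in which wild type was the higher genotype. A table of probe sets and genes paired 18 of the 26 with 1 gene each. Of these, 13 carry a locus code alone and 5 carry a symbol (ICL, ATC, LTI30, OCT1, and ATSBT5.2). The other 8 are unnamed here. All 26 entered the tests of time that are described below.

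The seedlings were Arabidopsis thaliana of the ecotype No-0, either wild type or carrying fhy3-4, a mutant allele of FHY3. Both genotypes were grown on medium with sucrose for 7 days in cycles of 12 h white light and 12 h darkness. They were then moved to constant red light of 120 µmol m-2 s-1 and sampled after 24, 32, 40, and 48 h. The samples at 24 and 48 h fall at subjective dawn, the one at 32 h in the subjective day, and the one at 40 h in the subjective night. Each sample was total RNA from about 100 whole seedlings on 1 array, so that each genotype has 4 arrays and no time has a biological replicate. In whole seedlings, more cells of a type and more RNA per cell cannot be told apart. Mean signals of the 8 arrays were 402.4 to 438.8, and Spearman correlations between arrays over all probe sets were 0.953 to 0.991. FHY3 itself had no paired probe set, so that the mutation was not checked on the mutated gene. The mean level of FHL, a known target of activation by FHY3, was below that of wild type without passing the test (log2 difference −0.79, SE 0.21, adjusted p = 0.0982 from limma).

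FHY3 is a transcription factor derived from a transposase. It acts with its relative FAR1 in phytochrome A signalling, where it activates the genes that carry phytochrome A into the nucleus, and it also takes part in the circadian clock, chlorophyll synthesis, and responses to stress. It is best known as an activator of transcription.

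The values that chose the members are given as a description, with no test. The ratio of the lowest fhy3 signal to the highest wild type signal was 1.51 to 41.6, with a median of 1.72. It reached 2 in 8 members, and in the other 18 it was lower. The members closest to the threshold on the inner side were AT5G17760 with a ratio of 1.51, ICL with 1.52, an unnamed probe set and AT3G51440 with 1.53 each, and AT4G17670 with 1.55. Those nearest on the outer side were AT3G53980 with 1.499 and AT3G19390 with 1.495, followed by 2 unnamed probe sets and AT1G01640 with 1.48. For the signal threshold, the lowest fhy3 signal of the closest members was 102 to 122, among them AT5G44570 with 107.5 and AT4G00670 with 121.7. The closest probe sets below it were an unnamed one with 99.3, cwINV6 with 83.5, and BHLH101 with 66.6. Members and neighbours thus differ little in ratio near the threshold. The highest ratio, that of AT5G41660, is taken against wild type signals of 7.65 to 11.0, which are under the floor of 20.7 used in the tests, so that its size is not a measured fold. The ratio next below it was 4.50.

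**Figure D1:**
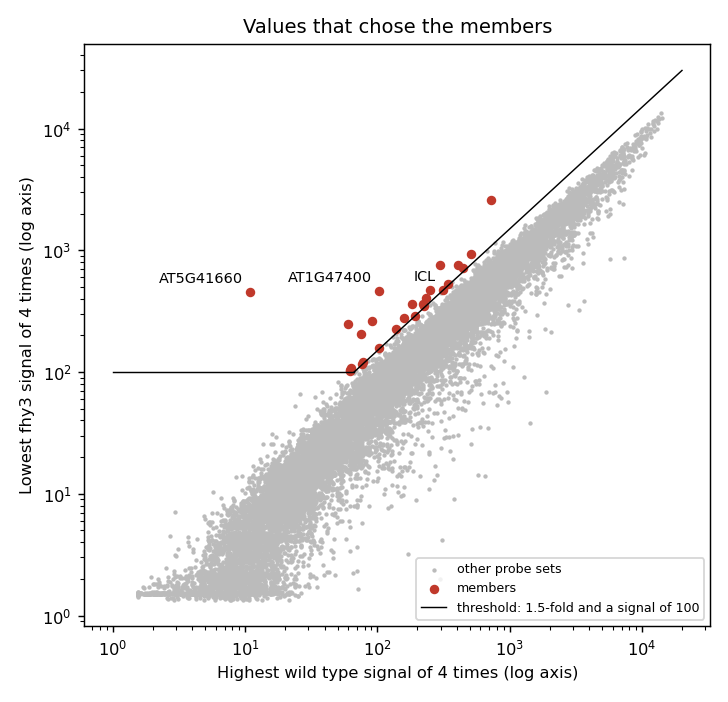
Highest wild type signal of the 4 times (x axis, log scale) against lowest fhy3 signal of the 4 times (y axis, log scale), 1 point per probe set, with array controls left out. The 26 members (red) lie above the black line, which marks a ratio of 1.5 and a signal of 100, and AT5G41660 lies far to the left because its wild type signals, at most 11.0, are under the floor of 20.7.

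The median over members of the mean signal was 404 in fhy3 and 113 in wild type, a gap that the rule itself sets. The log2 difference in mean level, fhy3 minus wild type, was 1.2 to 4.57 with a median of 1.89, and this range follows from the rule. For reference, 3.7% of all probe sets passed the test of the mean level in the direction of higher in fhy3 and 2.56% in the direction of lower, and nothing is read from these shares of the 17660 probe sets tested for the members. Signals under 20.7 were set to that value before logarithms were taken. This touched 4 members in wild type (AT5G41660 on 4 arrays, AT5G44570 on 3, and 2 unnamed probe sets on 2 and 1) and no member in fhy3.

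**Figure D2:**
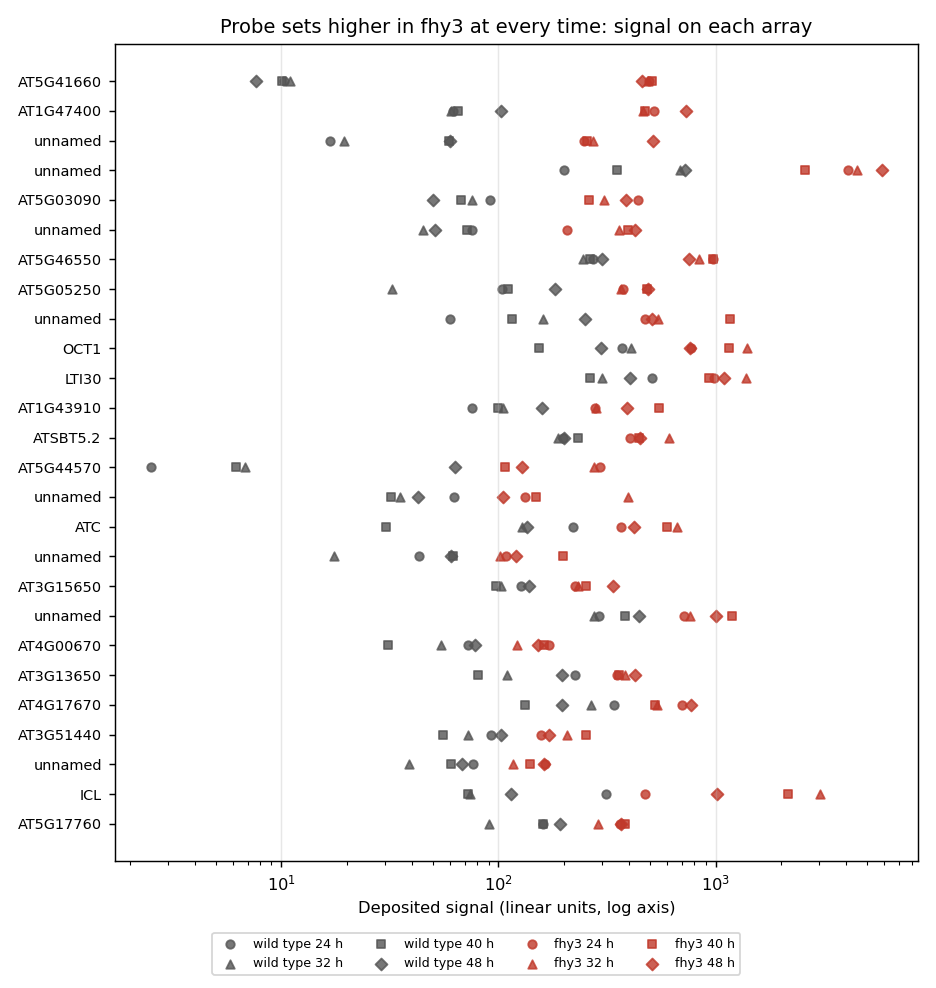
Deposited signal of each of the 26 members on the 8 arrays (x axis, log scale), ordered from the highest ratio at the top to the lowest at the bottom. Wild type is grey and fhy3 red, and the marker gives the time. In every row the grey and red points are separate, as the rule required, and AT5G41660 and AT5G44570 hold the lowest wild type points.

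ICL encodes isocitrate lyase, the enzyme of the glyoxylate cycle through which germinating seedlings turn stored oil into sugar. Its wild type signals were 311, 74.0, 72.2, and 115 at 24, 32, 40, and 48 h. In fhy3 they were 473, 3015, 2162, and 1018 at the same times. Wild type was highest on the first dawn array and fhy3 was lowest there, so that the fold differences from 24 to 48 h were 1.52, 40.8, 30.0, and 8.87. ICL thus met the threshold narrowly at 24 h, and its log2 difference in mean level was 4.04 (SE 0.48). Its fhy3 signals spanned 6.38-fold, the widest range of any member in that genotype.

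ATC is a relative of the floral repressor TFL1 in the family of phosphatidylethanolamine-binding proteins. Wild type signals were 220, 128, 30.5, and 135 at the 4 times, with the minimum in the subjective night. In the same order, fhy3 gave 365, 666, 601, and 422. They were highest at the 2 times between the dawns, where wild type was lowest, and the genotypes differed 5.19-fold at 32 h and 19.7-fold at 40 h, beside 1.66-fold at 24 h and 3.12-fold at 48 h.

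OCT1 encodes a transporter of organic cations and carnitine. Its wild type signals were 371, 409, 154, and 298 at the 4 times, and its fhy3 signals 767, 1394, 1159, and 763. The fhy3 dawn arrays were nearly equal, with a ratio of 48 to 24 h of 0.995, and both were below the arrays between them. The smallest fold difference was 2.07, at 24 h, and the largest 7.52, at 40 h.

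LTI30 encodes a dehydrin, a protein that accumulates in cold, in drought, and with abscisic acid. Wild type signals of 510, 299.5, 265, and 404 compared with fhy3 signals of 979, 1376, 929, and 1090. Wild type was higher on both dawn arrays than on either other array, whereas fhy3 was highest at 32 h and lowest at 40 h. The fold difference was 1.92, 4.59, 3.51, and 2.70 in the order of the times. ATSBT5.2, which encodes a subtilisin-like serine protease, was nearly level in wild type, with 198, 188, 233, and 199. In fhy3 it gave 403, 611, 442, and 448, so that its difference was largest at 32 h (3.25-fold) and smallest at 40 h (1.90-fold).

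**Figure D3:**
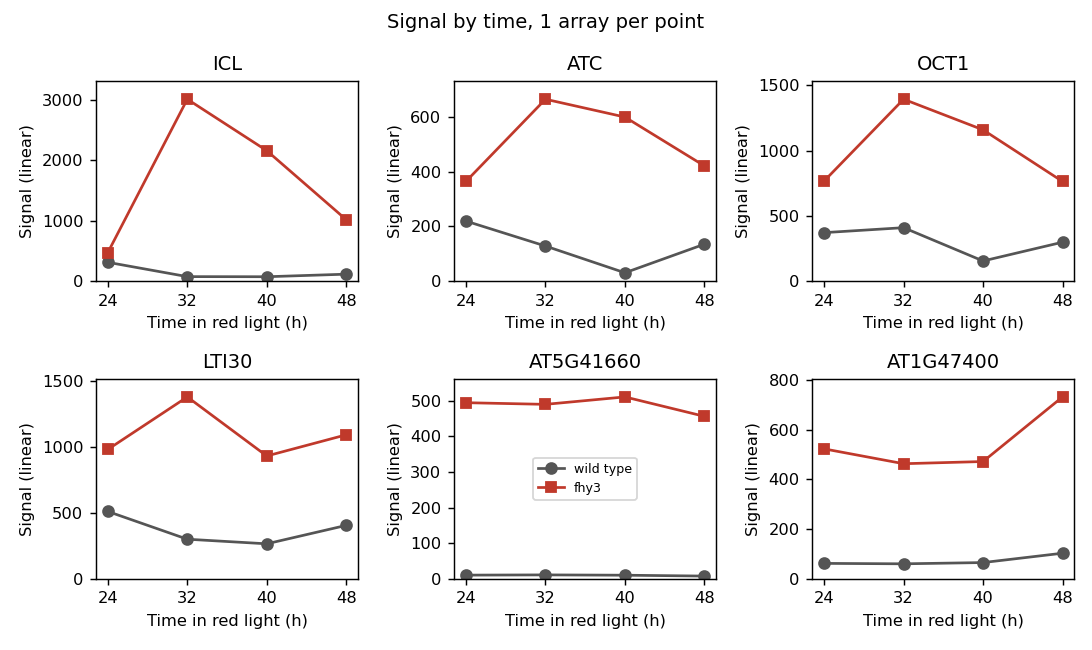
Signal (y axis, linear from 0, own scale in each panel) against time in red light (x axis, h) for 6 members, 1 array per point, with wild type in grey and fhy3 in red. ICL, ATC, OCT1, and LTI30 are highest in fhy3 at 32 h. AT5G41660 is level in fhy3, with signals of 456 to 511, while its wild type signals are all under the floor of 20.7.

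The genes known by a locus code alone are given without a role, as no source used here annotates one. AT5G41660 was measured above the floor in fhy3 alone. Its wild type signals were 10.3, 11.0, 10.1, and 7.65, all under the floor of 20.7, and its fhy3 signals were 495, 490.1, 511, and 456. It was the flattest member in fhy3, with a 1.12-fold range over the 4 times, and the log2 difference in mean level, 4.57, is set by the floor (2.57 with the floor at 20% of the mean signal and 5.63 with a floor of 1). AT1G47400 was the second by ratio, with wild type signals of 62.0, 60.2, 65.3, and 103 and fhy3 signals of 522, 463, 472, and 731. Both genotypes were highest at 48 h, and the fold difference stayed between 7.11 and 8.43. AT5G46550, with wild type signals of 272, 246, 265, and 299 and fhy3 signals of 978, 838, 972, and 752, was also steady, at 2.51-fold to 3.67-fold. In AT1G47400 and AT5G46550 the fold difference was of like size in the subjective day and night.

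Other locus-coded members varied more. AT5G44570 gave 2.51, 6.78, 6.15, and 62.8 in wild type, compared with 292, 275, 108, and 128 in fhy3. Its lowest fhy3 signal came at 40 h and its wild type signal rose above the floor at 48 h alone, where the fold difference was 2.04. AT5G05250 dropped to 32.2 at 32 h in wild type, from 104 at 24 h, and was 110.2 and 182 later, whereas its fhy3 signals were 373, 365, 482, and 491. AT5G03090 was the one named member with its highest signal at 24 h in both genotypes, 91.7 in wild type and 438 in fhy3, and it fell to 49.9 at 48 h in wild type, where fhy3 gave 387. AT1G43910 was highest at 48 h in wild type (159) and at 40 h in fhy3 (550.4).

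The remaining locus-coded members were AT3G15650, AT4G00670, AT3G13650, AT4G17670, AT3G51440, and AT5G17760, with ratios between 1.51 and 1.62. AT3G13650 was level in fhy3 and not in wild type. Its wild type signals were 225, 110, 80.4, and 197, and its fhy3 signals 351, 384, 361, and 424, so that wild type varied 2.80-fold and fhy3 1.21-fold. AT4G17670 fell to 132 at 40 h in wild type from 339 at 24 h, and its fhy3 signals were 703, 535, 527, and 769. AT3G51440 was lowest at 40 h in wild type and highest there in fhy3, with 92.5, 72.6, 55.8, and 103 in wild type, compared with 157, 206, 254, and 171 in fhy3. The wild type signals of AT5G17760 were 160.3, 90.5, 160.9, and 191, and those in fhy3 were 364, 288, 382, and 368, so that both genotypes were lowest at 32 h. AT3G15650 was highest at 48 h in both genotypes, with 139 in wild type and 336 in fhy3.

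One of the unnamed probe sets had wild type signals of 201, 687, 353, and 725 and fhy3 signals of 4093, 4469, 2583, and 5841. Wild type was lowest at 24 h, and the fold difference was 20.3 at 24 h and 6.51 to 8.06 later. The unnamed member with the highest ratio of these 8, 4.13, gave 16.8, 19.5, 59.3, and 60.1 in wild type, compared with 248, 274, 255, and 517 in fhy3. The other 6 unnamed members had fhy3 signals of 102 to 1191, wild type signals of 17.43 to 444, and ratios of 1.53 to 2.73.

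Over all 26 members, the median difference between genotypes was larger between the dawns than at them. The median log2 difference from 24 to 48 h was 1.27, 1.91, 2.18, and 1.32, where the medians over all probe sets tested were 0, 0.03, 0.03, and −0.01. Without the floor, the largest fold difference of a member fell at 40 h (11 members) or 32 h (8) more often than at 24 h (4) or 48 h (3). With the floor, that of AT5G41660 moves from 48 to 40 h and that of an unnamed member from 24 to 32 h. The sum for 32 and 40 h without the floor, 19 of 26, was not tested, because the rule used the genotype difference at each time.

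**Figure D4:**
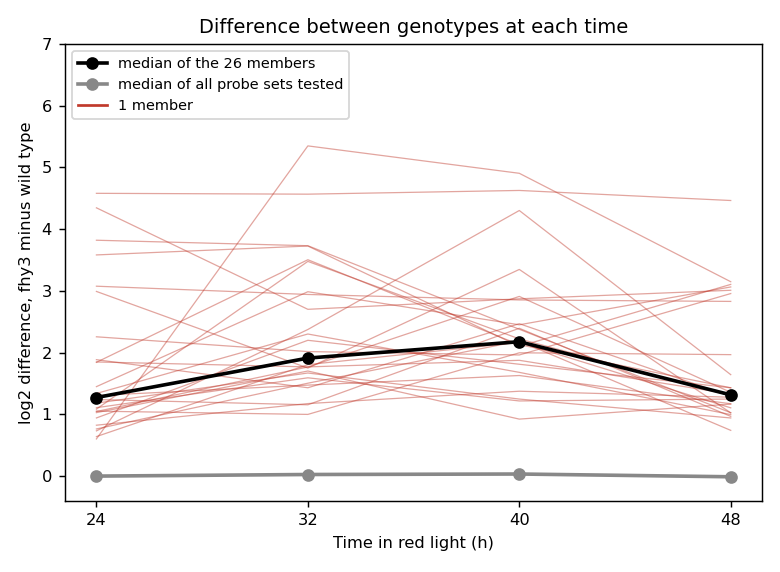
Log2 difference in signal, fhy3 minus wild type, with signals under 20.7 set to that value (y axis), against time in red light (x axis, h). Each thin red line is 1 member, the black line is their median (1.27, 1.91, 2.18, and 1.32), and the grey line is the median of all probe sets tested, which stays between −0.01 and 0.03.

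A dawn array was more often the highest of the 4 in wild type than in fhy3, a difference that was not tested. In wild type, the highest signal was at a dawn array (24 or 48 h) in 22 of 26 members, beside 46.1% of all probe sets tested. Both wild type dawn arrays were above both others in 10 members (23.8% of all probe sets) and below both others in 0 (17.3%). In fhy3, the highest signal was at a dawn array in 13 members (38.4% of all probe sets), both dawn arrays were above both others in 4 (17.9%) and below in 6 (22.9%). The median ratio of highest to lowest signal over the times, with the floor, was 2.11 in wild type and 1.64 in fhy3, beside 1.42 and 1.34 over all probe sets tested. The range was wider in fhy3 than in wild type in 8 members, or 30.8% beside 41.7% of all probe sets. Because the rule selected on the highest wild type and the lowest fhy3 signal, it bears on these ranges, and they are given as descriptions. From the first dawn to the second, the fhy3 signal was higher on the second in 18 members (69.2%, beside 53.2% of all probe sets) and the wild type signal in 15 (57.7%, beside 53.5%).

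Change with time within a genotype was fitted with limma, with the 24 and 48 h arrays as 1 dawn group. The signals that enter these fits are those that chose the members, so that the members' counts are descriptions and nothing is read from them. The spread in these tests is that between the 2 dawns, which are single arrays a day apart and no biological replicates. No member passed at an adjusted p of 0.05 in wild type, where 0.00566% of all probe sets did (lowest adjusted p 0.0754 from limma, AT4G00670). None passed in fhy3 either, where 0.017% did (lowest adjusted p 0.156 from limma, an unnamed member). At an unadjusted p under 0.05, 10 members in wild type (38.5%, beside 28.1% of all probe sets) and 5 in fhy3 (19.2%, beside 19.8%) were past the threshold. For the difference in time course between genotypes, 0 members passed after adjustment, as did 0% of all probe sets. At an unadjusted p under 0.05 there were 8 (30.8%, beside 18.5%). As examples, chosen after their values were seen, the fitted log2 difference of 40 h from dawn in wild type and fhy3 was −2.50 and 0.61 for ATC, −1.11 and 0.60 for OCT1, and −0.80 and 0.63 for AT3G51440.

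Rhythm was also called on these 8 arrays alone, with criteria as read here from the study's methods. These correlate the 4 signals with sine waves of a 24 h period and require an expression change. The study's alternative of an absolute change in expression was not applied. The study's joint normalisation with other arrays was not repeated either, so that the calls are not the study's own. The study called a larger share of expressed genes rhythmic in wild type in red light. In wild type 1 member was rhythmic, AT4G00670, with signals of 72.5, 54.6, 30.9, and 77.7 and a phase of 2 h after subjective dawn, whereas 12.5% of all probe sets were. In fhy3 4 members were rhythmic, OCT1 with a phase of 11 h, AT3G51440 with a phase of 14 h, and 2 unnamed ones, beside 10.7% of all probe sets. No member was rhythmic in both genotypes, and the difference between genotypes was not tested with these calls. AT4G00670 gave 171, 122, 162, and 152 in fhy3, within a 1.41-fold range.

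The named members lay on all 5 nuclear chromosomes, with 4 on chromosome 1, 1 on chromosome 2, 5 on chromosome 3, 2 on chromosome 4, and 6 on chromosome 5. Chromosome 5 held 33.3% of them and 23.5% of all named probe sets tested, and chromosome 2 held 5.56% and 15.2%. No pair was adjacent in the RefSeq annotation of the TAIR10.1 assembly. The closest pair, LTI30 and AT3G51440, had 47 protein-coding genes between them. ICL lay nearest to FHY3, with 52 such genes between, and it was the 1 member among 68 named probe sets tested within 100 genes on either side of FHY3. The one other probe set there with a ratio of at least 1.5 was that of AT3G21380, with a highest wild type signal of 21.4 and a lowest fhy3 signal of 32.2.

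Among the members, 3 were found by symbol in lists of genes of known function. ICL is in that of the glyoxylate cycle and fatty acid breakdown, ATC in flowering, and LTI30 in abscisic acid and drought. Some listed symbols matched no gene, IMA1 of the iron deficiency list among them. Members known by a locus code alone may therefore be list genes that were missed. The lists of ICL, ATC, and LTI30 hold 22, 27, and 29 genes, of which 3, 4, and 4 were tested, the members included. Most of the rest had no paired probe set, so that these lists were largely unmeasured. Their other tested genes did not pass the test of the mean level in either direction (0 of 2, 0 of 3, and 0 of 3 by limma). In each list 1 gene had an unadjusted p under 0.05, beside 31.9% of all probe sets. Those were SDP1 and COR47, with log2 differences of −0.18 and −0.19, opposite in sign to the members, and GI with 0.49. The other genes tested were AIM1 with 0.13 beside ICL, and FD with −0.34 and AGL24 with 0.24 beside ATC. Beside LTI30 they were COR15A with 1.42 and COR15B with 0.67, which had the sign of the member. All lists together hold 455 genes, of which 69 outside the members were tested. The median log2 difference of these 69 was 0.30, beside 0.02 over all probe sets. Of them, 10 were higher in fhy3 (PDF1.2b among them, whose call rests on 1 array) and 1 was lower. As shares these are to be read beside the 3.7% and 2.56% of all probe sets given above. The lists had been chosen with results of these data known. With the 4 times as additive terms in place of the dawn group, 1 of the listed genes was higher and 0 lower, and leaving out any single array left 0 to 4 higher (0 without any 1 dawn array, where the spread rests on 1 remaining pair).

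Of 31 genes listed for iron deficiency, 4 were found by symbol and tested, and most of the rest had no paired probe set. Listed symbols that matched no gene, IMA1 among them, could not be looked up, also among the members known by a locus code alone. The count of 4, and the absence of a member from this list, hold for the search by symbol only. Of these 4, 2 were higher in fhy3, beside 3.7% of all probe sets. The others did not pass, BGLU42 with a log2 difference of 0.30 and ILR3 with −0.22. BHLH101, a transcription factor of the iron deficiency response, met the fold of the rule but not its signal, and 3 of its 4 wild type signals were under the floor. Its wild type signals were 17.8, 13.1, 13.5, and 25.9 and its fhy3 signals 84.0, 108, 66.6, and 139, with no overlap (log2 difference 2.1, SE 0.22, adjusted p = 0.0356 from limma). PYE, another regulator of that response, had wild type signals of 131 to 173 and fhy3 signals of 235 to 279, with no overlap (log2 difference 0.75, SE 0.10, adjusted p = 0.043 from limma). Without either 32 h array neither gene passed, with log2 differences of 1.96 and 0.68. Neither passed with no filter on low signals (adjusted p = 0.0832 and 0.0867 from limma) or with the floor at 20% of the mean signal, where BHLH101 had a log2 difference of 0.26 (adjusted p = 0.653 from limma).

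Expansins and xyloglucan enzymes loosen and rebuild the cell wall in growth. Of 60 such genes listed, 23 were tested, and most of the rest had no paired probe set. Of these 23, 5 were higher in fhy3 (EXPA4, EXPA7, EXPA9, EXPA18, and EXLA1) and 1 was lower (EXPA8), beside 3.7% and 2.56% of all probe sets. EXPA8 gave 973, 1302, 818, and 889 in wild type, compared with 550, 611, 317, and 568 in fhy3. Its signals did not overlap between genotypes (log2 difference −1.06, SE 0.07). EXPA7, an expansin of root hair cells, gave 38.3, 38.9, 18.5, and 52.8 in wild type, compared with 78.7, 154, 148, and 128 in fhy3, with no overlap (log2 difference 1.99, SE 0.23, adjusted p = 0.0373 from limma). EXPA18, its partner in root hairs, gave 246, 149, 98.6, and 261 in wild type, compared with 352, 612, 164, and 428 in fhy3, where the signal at 40 h lay within the wild type range (log2 difference 1.13, SE 0.10, adjusted p = 0.0318 from limma). Without either 32 h array neither passed, with log2 differences of 2.00 for EXPA7 and 0.67 for EXPA18, and without either 40 h array that of EXPA7 was 1.57 and did not pass. Neither passed with no filter on low signals or with the floor at 20% of the mean signal, where EXPA7 had a log2 difference of 0.68 (adjusted p = 0.218 from limma) and EXPA18 one of 1.13 (adjusted p = 0.0554). These are the 2 of 9 root hair markers that could be paired, and their summed signal was 117 to 314 in wild type and 312 to 766 in fhy3. The root hair list held 40 genes, of which 3 were tested, EXPA7, EXPA18, and SCN1, and most of the rest had no paired probe set. SCN1 was lower in fhy3 at each of the 4 times. It did not pass the test (log2 difference −0.24, SE 0.07, adjusted p = 0.119 from limma). The 2 of 18 root markers that could be paired, AGL42 and PYK10, summed to 5687 to 7304 in wild type and 6778 to 9752 in fhy3, and neither passed the test. The 2 of 15 leaf markers, LHCB4.1 and RCA, summed to 18211 to 20336 and 18510 to 19568, so that both labelled genotypes gave overlapping levels of green tissue markers. No seed storage marker was paired, and the 1 of 11 flower markers, AGL66, was at 5.9 to 13.3 and 7.97 to 8.94, under the floor. The part of tissue proportions in the members' differences was not tested.

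**Figure D5:**
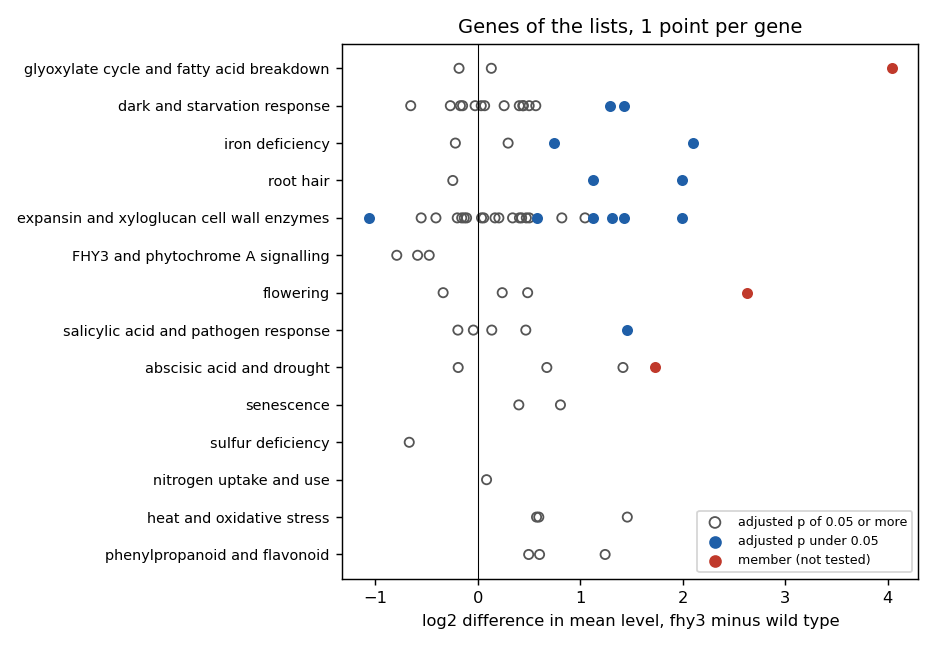
Log2 difference in mean level, fhy3 minus wild type (x axis), for the genes of each list (y axis), 1 point per gene. Filled blue points passed the test at an adjusted p of 0.05 from limma, open points did not, and the 3 red points are the members ICL (4.04), ATC (2.62), and LTI30 (1.73), which were chosen by this difference and have no test.

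Of 38 genes in the dark and starvation list, 15 were tested, and most of the rest had no paired probe set. Of these 15, 2 were higher in fhy3, beside 3.7% of all probe sets. GAT1_2.1 and BGLU46 passed with log2 differences of 1.43 (SE 0.07) and 1.29 (SE 0.10), each with an adjusted p of 0.0312 from limma. Their fhy3 signals at 40 h, 1369 and 3620, were the highest of all 8 arrays. Without either 40 h array the log2 differences were 0.71 for GAT1_2.1 and 0.80 for BGLU46, which then no longer passed. At 24 h the genotypes were closer, with 128 in wild type and 157 in fhy3 for GAT1_2.1 and 525 and 606 for BGLU46, so that neither met the rule at every time. ICL, by contrast, had its highest fhy3 signal at 32 h. Of 40 genes in the salicylic acid and pathogen list, 5 were tested, and most of the rest had no paired probe set. Of these 5, 1 was past the threshold, PDF1.2b, a defensin gene. Its signal was 427 on the fhy3 40 h array and under the floor on the other 7, at 1.96 to 12.8. Both dawn pairs were set to the floor, so that its error and its call come from the floor and 1 array, and the gene is no evidence of a higher level.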

How the data were processed

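The authors deposited 1 linear intensity per probe set and array, scaled between arrays. MAS5 is named in the submitters' processing notes and D-chip in the paper's methods, and which of them made these values is not settled. Of 22810 probe sets, 64 controls, 503 of several genes, 87 of organelle genes, and 5 whose symbol matched no gene were left out of tests. Unnamed probe sets (8730) were kept. Tests were limited to probe sets with a genotype mean of 5% or more of the overall mean signal (413.5), which left out 4491 and kept 17660. Intensities under 20.7 were set to that value, and log2 values were fitted with limma 3.58.1 (R 4.3.3), with 6 group means over 8 arrays, the 24 and 48 h arrays of a genotype forming 1 dawn group, 2 residual degrees of freedom (prior 2.01), and Benjamini-Hochberg adjustment over all 17660 at 0.05. The mean level is the average over dawn, 32, and 40 h. P-values measure only the spread between 24 and 48 h, which is not that of biological replicates. Rhythm needed a correlation with 1 of 24 sine waves with p under 0.01. Both procedures were tested on simulated data. The number of arrays limits the precision. The members and lists were chosen with earlier results of these data known. Named were the members with the highest ratios, signals, and widest or narrowest ranges, those near the thresholds or in a list, and up to 4 genes per list by smallest p. Gene names came from the probe table and RefSeq (TAIR10.1), which also gave chromosomes and gene order. No coordinates are given and no sequences were used.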

Additional observations from a re-analysis of the deposited data

How the results depend on the processing

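The number of members moved with the thresholds and single arrays. With the lower fold tried there were 100, and with a fold of 2 there were 8. With each array left out in turn there were 29 to 96, the most without fhy3 24 h, then 65 without wild type 48 h and 44 without fhy3 40 h, and all 26 were kept each time, as leaving out an array can only relax the rule. A lowest signal of 50 or 200 gave 32 or 20. Quantile normalization gave 28, of which 23 were members as chosen, and division by array medians gave 25, of which 22 were. With the floor at 20% of the mean, 1 member, an unnamed one, passed the tests of time in fhy3 and of interaction, and no other alternative gave a call for a member in either or in wild type. Of listed genes, 5 were higher without the low filter and 1 with additive times, and 0 to 4 with an array left out. In the other direction, 4 were lower with the floor at 20%, 2 with a floor of 1, 4 without the filter, 0 with additive times, and 0 to 1 with an array left out. Rhythm calls among the members in wild type were 6 at p under 0.05, 2 on log2 signals, and 2 after quantile normalization. In fhy3 there were 11 at p under 0.05 and 2 on log2 signals. The shares of all probe sets called under these settings are not given here, so that nothing is read from these counts or from their difference between genotypes. With 1 array left out, the log2 differences of listed genes that had not passed and changed sign ranged from −0.5718 to 0.004321 for FD, −0.03878 to 0.2471 for NRT2.5, −0.009609 to 0.189 for SAG101, −0.5 to 1.075 for UF3GT, and −0.01877 to 0.7974 for STZ. The cause was not tested. Arrays of the 2 genotypes pair only by time, and the fit with additive times is that pairing. Every group holds 1 array, so that there are no replicates to pair. Low signals limit AT5G41660 and AT5G44570 in wild type, where differences depend on the floor.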
